A study of Mus musculus with 12 samples.

Results

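The fibroblast growth factor (FGF) genes described here are 39 of the 45706 genes in a count table of 12 mouse RNA-seq libraries. They were taken by name as the known components of one pathway: 22 genes of the FGF family, 5 receptor genes, 9 feedback inhibitors and 3 ETS transcription factor genes that respond to FGF signalling. The 22 family genes comprise 15 canonical ligands, which act near the cell that secretes them, 3 endocrine ligands and 4 intracellular members that bind sodium channels and are not secreted. A secreted FGF binds a receptor tyrosine kinase together with heparan sulfate or a klotho protein, and the receptor signals through Ras and the kinase ERK. ERK induces the genes of the Sprouty and Spred proteins and of the dual-specificity phosphatases, which restrain the same cascade, and the ETS factors *Etv1*, *Etv4* and *Etv5*. FGF signalling drives embryonic stem cells toward differentiation, patterns the early neural plate, and is supplied in the medium to keep neural progenitors dividing.

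All cells came from mouse embryonic stem cells of strain C57BL/6 by the labels, carrying GFP in 1 copy of the neural stem cell gene *Sox1*. Baseline libraries hold neural progenitor cells, labelled as *Sox1*-negative glial progenitors and as not sorted, and Sox1posGP libraries hold *Sox1*-positive glial progenitors that were sorted. The study switched *Sox1* on in such progenitors with dCas9-VP64, a Cas9 without nuclease activity fused to an activating domain, guided to the *Sox1* promoter, in lines grown from single cells. NSC libraries hold unsorted neuroepithelial cells and NR libraries neuroepithelial cells sorted for GFP, called neural rosettes. The labels and the published text differ on Baseline, since the text describes sorting for both progenitor groups. Each group has 3 libraries, made on different days. The progenitors were expanded with recombinant human FGF2 (bFGF), EGF and laminin, so an FGF ligand was present in their medium whatever the cells transcribed, and the sources used here give no FGF dose for the neuroepithelial cells. The sources used here do not state which clonal line gave which library. They also give neither the sort's time after induction nor the guides in these libraries.

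The libraries differed in depth. Total counts ran from 29046205 to 43095688 in NSC, 16707006 to 34594885 in NR, 4939268 to 18351483 in Baseline and 3407066 to 6315574 in Sox1posGP. A gene with no count can therefore hide a level below 3 counts per library, which is 0.0696 CPM (counts scaled to library size) in NSC 1 but 0.881 in Sox1posGP 1. Levels below are CPM after TMM scaling, in replicates 1, 2 and 3 of a group. They are divided by the exon length in kb where genes are compared with each other, and group values are means ± SD of 3 libraries. A gene is called higher or lower at a Benjamini-Hochberg adjusted p under 0.1 in edgeR's quasi-likelihood test over 17003 genes, which kept 34 of the 39.

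The targeted gene *Sox1* read 4.83, 6.00 and 5.43 CPM in Baseline and 20.3, 20.9 and 21.7 in Sox1posGP, with a log2 fold change of 1.97 (SE 0.43, adjusted p = 0.00221). It read 48.6, 64.9 and 51.8 CPM in NSC and 4.62, 20.0 and 19.2 in NR. Sox1posGP was above Baseline in every library, NSC was the highest group, and NR 1 lay below all 3 Baseline libraries although NR is labelled as sorted for the reporter. All 8 neural progenitor markers examined, *Sox1* included, were lower in NR than in NSC (all genes 26.6%). Their summed level was 2439, 2581 and 2299.8 CPM in NSC against 814, 1524 and 1221 in NR. In Sox1posGP against Baseline 3 of the 8 were higher and 3 lower (all genes 21.6% and 22.7%). There the sum was 1492, 1585 and 1529 in Baseline and 1521, 1536 and 1523 in Sox1posGP, with *Vim* the most abundant of the 8 per kb in all 4 groups. The names NSC and NR are used below as labels.

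The NSC and NR groups also held marker RNA that was scarce in Baseline and Sox1posGP. Markers of pluripotent cells summed to 3130.5, 1630.2 and 2421 CPM in NR, 179, 63.6 and 162 in NSC, 35.9, 41.3 and 45.7 in Baseline and 14.8, 15.2 and 16.3 in Sox1posGP. All 8 were higher in NR than in NSC (all genes 30.0%), *Dppa5a* was the most abundant per kb in both groups, and none was at 0 in either. Neural crest and mesenchyme markers, led by *Col1a1*, summed to 1800.1, 559.7 and 1795 CPM in NSC and 4665, 655 and 3262 in NR, against 36.2, 37.0 and 34.9 in Baseline and 42.6, 44.9 and 46.4 in Sox1posGP. Of these 8 markers, 3 were higher in NR than in NSC (all genes 30.0%). NSC 2 and NR 2 stood apart from their groups, with the lowest sums of both lists, so the totals of calls among the 39 genes that involve NSC or NR are also given without these 2 libraries, with the calls this changed. Counts for parts of the 39 and for other lists use all libraries. In bulk RNA, a smaller share of cells that express a gene and less of its RNA in each cell cannot be told apart.

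Other marker lists separated the groups as follows. Radial glia and astrocyte markers, with *Fabp7* the most abundant per kb in all 4 groups, summed to 4483, 4266 and 4094 CPM in Baseline, 1790.3, 1797 and 1725 in Sox1posGP, 736, 399 and 707 in NSC and 197, 246 and 319 in NR. Oligodendrocyte lineage markers summed to 2405, 2533 and 2421 CPM in Baseline, 1761, 1746 and 1628 in Sox1posGP, 84.8, 66.2 and 84.0 in NSC and 49.3, 54.1 and 51.2 in NR. In Baseline and Sox1posGP that sum was led by *Olig1*, while *Sox10*, which defines committed oligodendrocyte precursors, had no count in any of those 6 libraries. These sums follow their abundant genes. In Sox1posGP against Baseline *Fabp7*, *Slc1a3* and *Tnc* were called lower but *Aldh1l1* and *Hopx* higher among the 8 radial glia and astrocyte markers, and *Olig1* and *Olig2* were lower among the 6 oligodendrocyte markers tested (all genes 22.7% lower and 21.6% higher). *Aqp4* was also called higher and *Mbp* lower, but each had under 10 counts in every library of both groups and the groups overlapped, so these 2 calls are not used. Neuron markers summed to 736, 604 and 759 CPM in NSC, 339, 424 and 514 in NR, 482, 481 and 509 in Baseline and 439, 442 and 427 in Sox1posGP. Most of the last 2 sums is *Map2*, which read 454, 459 and 480.4 CPM in Baseline and 26.0, 33.6 and 53.9 in NR. But 6 of the 8 neuron markers were higher in NSC and in NR than in Baseline (all genes 44.4% and 45.6%). *Tubb3* was among them, with 262, 235 and 263 CPM in NSC, 101, 143 and 167 in NR and 6.09, 4.60 and 5.43 in Baseline. Mesoderm and endoderm markers summed to 112, 145 and 96.04 CPM in NR, 40.3, 56.7 and 44.1 in NSC, 23.0, 29.4 and 21.7 in Baseline and 31.3, 39.6 and 36.2 in Sox1posGP, and T led in NR and *Foxa2* in NSC. *Afp* had no count in Baseline or Sox1posGP, nor *Sox17* in Sox1posGP. The part of these other cell types in the FGF results was not tested, except for the values set beside them below.

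Each group had a different leading secreted ligand. Summed over the 18 secreted FGF genes, the level was 17.2 ± 0.641 CPM per kb in Baseline, 15.3 ± 1.25 in Sox1posGP, 29.8 ± 6.47 in NSC and 73.2 ± 21.0 in NR. *Fgf21*, a hormone of the fasting and stress response, made up 66.5% ± 2.37 of that sum in Baseline, and *Fgf1*, a ligand of all FGF receptors, made up 19.2% ± 1.57. In Sox1posGP *Fgf1* held 80.2% ± 2.81 and *Fgf21* 1.14% ± 1.11, so the makeup changed while the sum lay at a similar size. In NSC *Fgf15*, the mouse counterpart of human FGF19, led with 33.5% ± 1.45, ahead of *Fgf18* with 18.5% ± 4.74 and *Fgf5* with 11.04% ± 3.02. In NR *Fgf4*, the ligand that primes embryonic stem cells for differentiation, held 35.3% ± 1.62 and *Fgf5*, a marker of the epiblast, 30.7% ± 2.94.

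**Figure D1:**
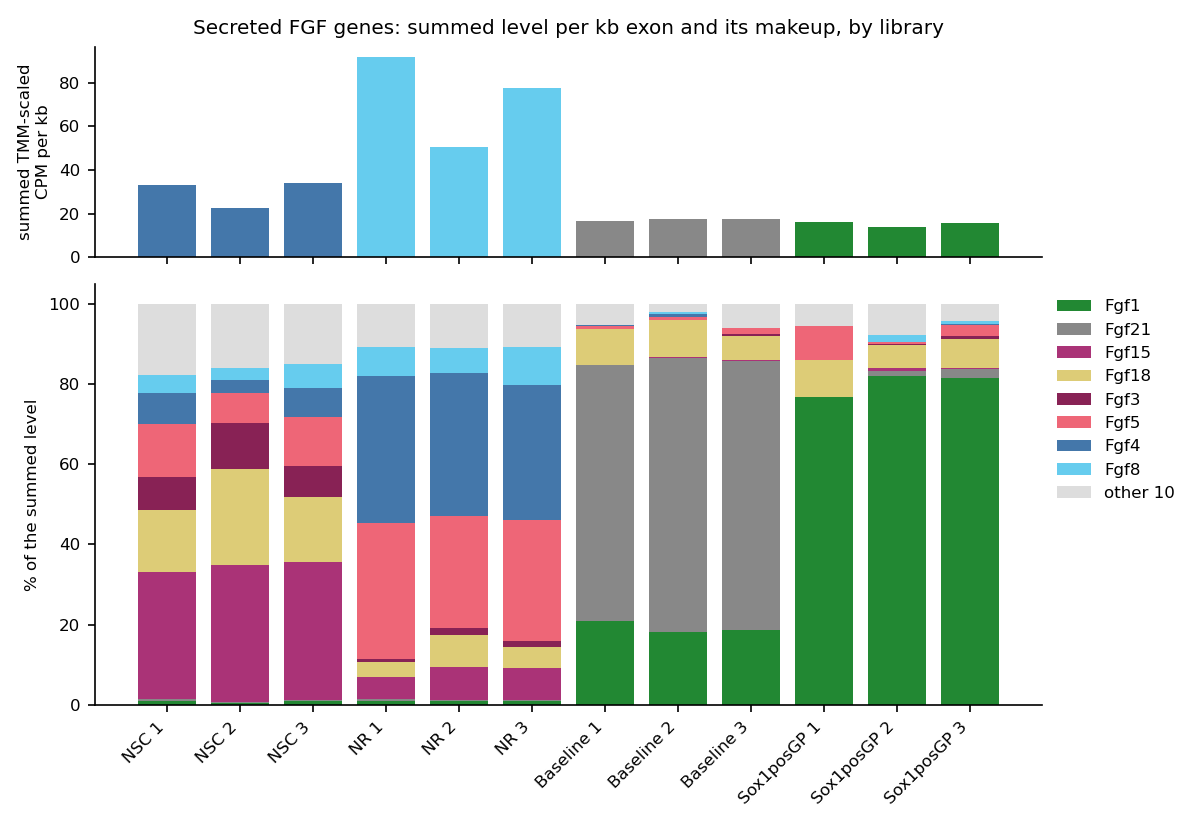
The upper bars give the summed level of the 18 secreted FGF genes in each of the 12 libraries (TMM-scaled CPM per kb exon), and the lower bars the share of that sum by gene in percent. *Fgf21* takes the largest share in the 3 Baseline libraries, *Fgf1* in Sox1posGP, *Fgf15* in NSC and *Fgf4* in NR.

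*Fgf21* (ENSMUSG00000030827, chr7:45613886-45615490, GRCm38) was nearly confined to Baseline. Its level was 10.03, 11.4 and 11.3 CPM in Baseline and 0, 0.157 and 0.334 in Sox1posGP, from 168, 82 and 54 counts against 0, 1 and 2. Every Baseline library was above every other library of the series, and the 3 Sox1posGP libraries were at 2 counts or fewer. The pooled level was higher in Baseline than in Sox1posGP by a factor of 55.8 (95% interval 18.9 to 272), an exact interval that covers counting error alone. *Fgf21* passed the filter through Baseline, where it is high, so the filter fixed the direction of its tests against Baseline. They are a description. The fitted log2 fold change in Sox1posGP was -5.80 (SE 0.54, adjusted p = 1.91e-06), and -6.67 without Sox1posGP replicate 3. In NSC and NR, with 6, 1 and 4 and 7, 7 and 5 counts, the log2 fold changes against Baseline were -6.65 (SE 0.43, adjusted p = 8.34e-09) and -5.47 (SE 0.40, adjusted p = 2.86e-08). Both tests carry the same limit from the filter.

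The 250 bases before the *Fgf21* start (RefSeq, GRCm38.p6, chr7:45615491-45615740, minus strand, printed in the direction of transcription) are shown because the gene separates Baseline from the other groups. Capitals mark 3 matches. TTGCATCA at -139 is the reverse complement of TGATGCAA, a core of the amino acid response element that the stress factor ATF4 binds. TATAAA at -28 is a TATA box, and TTCATTCA at -172 is the reverse complement of TGAATGAA, an octamer of the ERK-regulated repressor Capicua.
Fgf21: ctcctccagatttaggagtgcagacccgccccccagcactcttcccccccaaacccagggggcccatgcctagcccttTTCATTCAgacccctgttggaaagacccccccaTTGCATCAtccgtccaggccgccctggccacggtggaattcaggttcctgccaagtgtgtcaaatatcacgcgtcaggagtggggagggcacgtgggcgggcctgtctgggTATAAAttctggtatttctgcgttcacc
On either strand TGATGCAA is in 0.791%, TATAAA in 12.4% and TGAATGAA in 1.08% of the 32851 RefSeq promoters of the same length. TGATGCAA and TATAAA were chosen after the *Fgf21* sequence had been looked at. A match is a string of letters and not evidence of binding.

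*Fgf1* moved the other way between the progenitor groups. It read 18.9, 17.3 and 17.9 CPM in Baseline and 68.0, 62.0 and 70.4 in Sox1posGP, and 1.81, 0.483 and 1.58 in NSC and 4.43, 2.16 and 3.68 in NR. The 4 groups did not overlap, with Sox1posGP highest and NSC lowest. The log2 fold change was 1.88 (SE 0.29, adjusted p = 1.72e-04) in Sox1posGP against Baseline, -3.76 (SE 0.33, adjusted p = 1.98e-07) in NSC against Baseline and -2.43 (SE 0.31, adjusted p = 7.51e-06) in NR against Baseline. Between the neuroepithelial groups it was 1.33 (SE 0.33, adjusted p = 0.00453), higher in NR. So this ligand was further from the neuroepithelial groups in Sox1posGP than in Baseline.

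Among the secreted ligands, 1 (*Fgf1*) was called higher and 1 (*Fgf21*) lower in Sox1posGP, of 13 tested. Over all 39 genes, 34 of them tested, 7 were called higher, where 21.6% of all genes tested were, and 6 lower, where 22.7% were. The counts of FGF genes therefore lie close to the background in both directions, and the fold changes of single genes carry the difference. For the other 11 tested ligands, levels were low in both groups. *Fgf18* read 1.73, 1.95 and 1.25 CPM in Baseline and 1.74, 0.942 and 1.33 in Sox1posGP, and *Fgf5* read 0.358, 0.279 and 0.626 CPM in Baseline and 3.47, 0.157 and 1.00 in Sox1posGP, where Sox1posGP 1 held 12 counts. Neither was called, and both groups overlapped in each gene.

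NSC and NR transcribed ligands that the progenitor groups left near the floor. Of the 18 secreted ligands, 10 were called higher than in Baseline, 2 lower and 1 in neither direction in NSC, 5 were not tested, and the same numbers held in NR. *Fgf3*, *Fgf4*, *Fgf7*, *Fgf8* and *Fgf15*, with at most 3 counts in any Baseline library, passed the filter through the groups where they are high, so the filter fixed their direction and the count is a description. *Fgf9*, with at most 4 counts there, passed it in the same way, and *Fgf21* passed it through Baseline. Over all 39 genes, 17 were called higher in NSC, where 44.4% of all genes tested were, and 13 lower, where 33.7% were. In NR 15 were called higher, where 45.6% of all genes tested were, and 15 lower, where 34.1% were. All 4 counts lie at or within a few genes of those shares, and both comparisons share the Baseline libraries.

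*Fgf15*, *Fgf3* and *Fgf4* lie side by side on chromosome 7 (chr7:144838083-144844436 for *Fgf3*, chr7:144847367-144865243 for *Fgf4* and chr7:144896531-144900953 for *Fgf15*, GRCm38). *Fgf15* read 32.0, 23.5 and 35.8 CPM in NSC and 15.8, 12.4 and 19.4 in NR, from 1 or no count in each Baseline library. *Fgf3*, a signal of the hindbrain and the inner ear, read 6.35, 5.94 and 6.22 CPM in NSC and 2.09, 1.94 and 2.81 in NR. *Fgf4* read 8.12, 2.24 and 7.77 CPM in NSC and 108, 57.2 and 83.2 in NR. The first 2 of these neighbours were higher in every NSC than in every NR library, and *Fgf4* was the reverse, so adjacent genes moved in opposite directions between the 2 groups.

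In NR against NSC the log2 fold change was -0.94 (SE 0.22, adjusted p = 0.00350) for *Fgf15*, -1.43 (SE 0.29, adjusted p = 0.00116) for *Fgf3* and 3.76 (SE 0.38, adjusted p = 6.75e-06) for *Fgf4*. The median over the other genes within 5 Mb of *Fgf4* was 0.10. Since Baseline held 0, 1 and 1 counts of *Fgf15*, 0, 0 and 1 of *Fgf3* and 3, 3 and 0 of *Fgf4*, folds against it are pooled ratios with exact intervals. In NSC the ratio to Baseline was 443 (95% interval 123 to 3658) for *Fgf15*, 178 (95% interval 31.8 to 7042) for *Fgf3* and 30.7 (95% interval 14.03 to 84.0) for *Fgf4*. In NR it was 231 (95% interval 63.9 to 1912), 67.3 (95% interval 11.9 to 2670.2) and 375 (95% interval 172 to 1021) in the same order. These ratios rest on a handful of Baseline counts. The fitted log2 fold change of *Fgf3* in NSC moved from 7.20 to 6.05 without Baseline replicate 1 and 10.0003 without replicate 3, and in NR from 5.78 to 4.62 and 8.57. That of *Fgf15* moved from 8.62 to 7.41 and 9.26 in NSC and from 7.69 to 6.47 and 8.33 in NR. So the size of these folds is poorly known. Reads of *Fgf15* and of the antisense gene Gm26793, which shares 24.9% of its exon bases, cannot be told apart where the counting ignored strand.

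The 250 bases before the *Fgf4* start (RefSeq, GRCm38.p6, chr7:144861136-144861385, plus strand) are shown because *Fgf4* had the largest fitted rise in NR against NSC among the 34 tested genes. Capitals mark its 21 CG dinucleotides, where the median promoter of the same length has 6.
Fgf4: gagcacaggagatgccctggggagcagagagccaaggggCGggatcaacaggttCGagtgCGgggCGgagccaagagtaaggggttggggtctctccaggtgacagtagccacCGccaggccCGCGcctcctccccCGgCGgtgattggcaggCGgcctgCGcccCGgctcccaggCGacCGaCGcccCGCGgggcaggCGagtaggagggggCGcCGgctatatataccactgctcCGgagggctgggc
This start lies inside the span given above for the gene, which comes from the GRCm38 gene annotation and begins further upstream. The *Fgf21* window printed above has 9 CG dinucleotides. The *Fgf4* window holds none of TGAATGAA, TGAATGGA, CCGGAAGT and TGACGTCA on either strand.

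**Figure D2:**
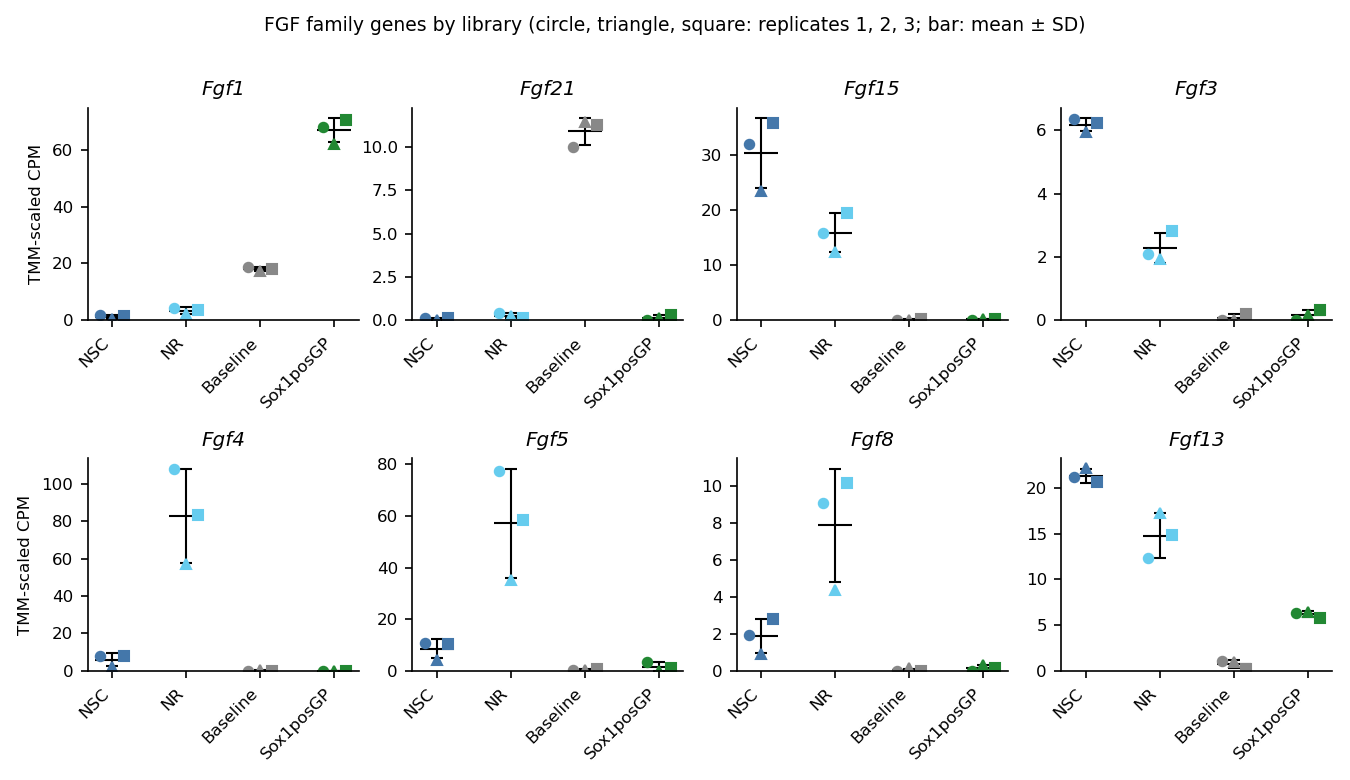
Each panel plots 1 gene of the FGF family in TMM-scaled CPM for the 12 libraries, with circles, triangles and squares for replicates 1, 2 and 3 and a bar for the mean ± SD (n = 3). *Fgf1* is highest in Sox1posGP, *Fgf21* in Baseline, *Fgf15*, *Fgf3* and *Fgf13* in NSC, and *Fgf4*, *Fgf5* and *Fgf8* in NR, with NR 2 the lowest NR library for the last 3.

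*Fgf5*, *Fgf8* and *Fgf17* followed *Fgf4*. *Fgf5* read 10.9, 4.25 and 10.5 CPM in NSC and 77.5, 35.2 and 58.5 in NR. *Fgf8*, an organizer signal of the gastrula and the midbrain border, read 1.95, 0.932 and 2.80 CPM in NSC and 9.05, 4.39 and 10.2 in NR, and its relative *Fgf17* 1.16, 0.414 and 0.853 and 5.54, 3.65 and 5.56. For all 3 genes every NR library was above every NSC library, and NSC 2 and NR 2 were the lowest of their groups. The log2 fold change in NR against NSC was 2.73 (SE 0.40, adjusted p = 9.97e-05) for *Fgf5*, 2.04 (SE 0.41, adjusted p = 0.00101) for *Fgf8* and 2.56 (SE 0.43, adjusted p = 2.94e-04) for *Fgf17*.

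Against Baseline, the log2 fold change of *Fgf5* was 4.46 (SE 0.69, adjusted p = 4.86e-05) in NSC and 7.18 (SE 0.64, adjusted p = 2.01e-07) in NR. With a single Baseline count, the ratio of *Fgf8* to Baseline was 55.6 (95% interval 9.86 to 2205) in NSC and 224 (95% interval 40.0 to 8846) in NR. Its fitted log2 fold change moved from 5.52 to 4.38 without Baseline replicate 1 and 8.30 without replicate 2 in NSC, and from 7.56 to 6.41 and 10.34 in NR. *Fgf17*, with 10, 0 and 4 Baseline counts, had a log2 fold change of 3.34 (SE 0.55, adjusted p = 8.41e-05) in NR and was not called in NSC.

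These ligands were high in the libraries where the pluripotency markers were high. In NR 1, NR 2 and NR 3, where those markers summed to 3130.5, 1630.2 and 2421 CPM, *Fgf4* read 108, 57.2 and 83.2 and *Fgf5* 77.5, 35.2 and 58.5. In NSC the markers summed to 179, 63.6 and 162 CPM, with NSC 2 lowest in the sum and in both genes. *Fgf4* and *Fgf5* are themselves expressed by pluripotent and epiblast cells, and the part of such cells in these levels was not tested. Without NSC replicate 2 and NR replicate 2, a choice made after seeing the data, the log2 fold change in NR against NSC was 3.57 for *Fgf4*, 2.65 for *Fgf5* and 2.02 for *Fgf8*.

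**Figure D3:**
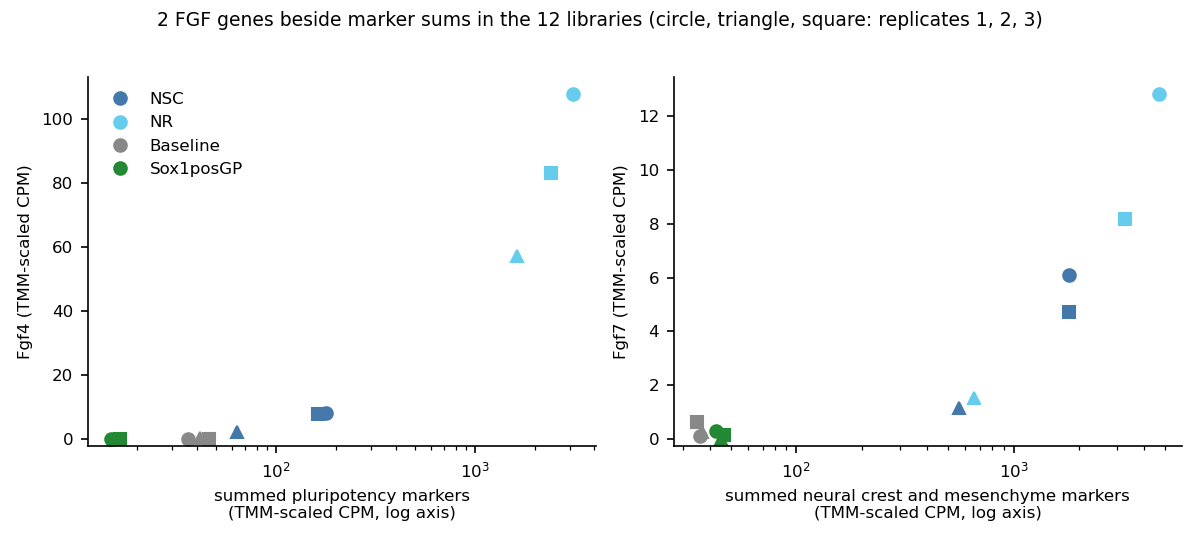
The left panel plots *Fgf4* against the summed level of 8 pluripotency markers and the right panel *Fgf7* against the summed level of 8 neural crest and mesenchyme markers, in TMM-scaled CPM with a log x axis, 1 point per library. The 3 NR libraries have the highest sums of pluripotency markers and the highest *Fgf4*, and NSC 2 and NR 2 (triangles) lie lowest in their groups in both panels.

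*Fgf7* and *Fgf10*, which mesenchyme secretes to act on epithelium, were also higher in both groups than in Baseline. *Fgf7* read 6.11, 1.14 and 4.72 CPM in NSC and 12.8, 1.52 and 8.18 in NR, with 2 or 3 counts in each Baseline library, and replicate 2 was the lowest of each group, as it was for the mesenchyme markers. The ratio to Baseline was 17.8 (95% interval 8.55 to 44.4) in NSC and 27.0 (95% interval 13.0 to 67.6) in NR, and the fitted log2 fold change moved from 3.94 to 3.19 and from 4.82 to 4.06 without Baseline replicate 1, and in NR to 4.17 without NR replicate 1. The NSC and NR libraries overlapped, but *Fgf7* was higher in NR within each of the 3 replicate numbers. It was not called there, at a log2 fold change of 0.88 (SE 0.62, adjusted p = 0.261), and was called with the replicate number as a block, at 0.81 (adjusted p = 0.0193).

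*Fgf10* read 5.97, 5.32 and 5.52 CPM in NSC and 6.28, 5.55 and 4.78 in NR, with replicate 2 close to the others. Its log2 fold change against Baseline was 2.98 (SE 0.30, adjusted p = 7.85e-07) in NSC and 2.95 (SE 0.30, adjusted p = 8.12e-07) in NR.

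*Fgf9* and *Fgf18* were highest in NSC. *Fgf9*, a glial and mesenchymal growth factor, read 5.95, 6.32 and 5.91 CPM in NSC, 0.924, 3.03 and 1.74 in NR and 0.239, 0.279 and 0.417 in Baseline, and these 3 groups did not overlap. Its log2 fold change was 4.39 (SE 0.46, adjusted p = 1.21e-06) in NSC and 2.76 (SE 0.49, adjusted p = 1.65e-04) in NR against Baseline and -1.63 (SE 0.31, adjusted p = 6.80e-04) in NR against NSC. *Fgf9* passed the filter through NSC and NR, so the filter fixed its direction against Baseline and those tests are a description. *Fgf18* read 5.97, 6.35 and 6.58 CPM in NSC and 3.82, 4.87 and 4.69 in NR, with log2 fold changes against Baseline of 1.90 (SE 0.24, adjusted p = 6.45e-06) and 1.41 (SE 0.24, adjusted p = 1.06e-04). *Fgf2*, the ligand supplied in the medium, was transcribed at a low level of its own, with 2.71, 2.14 and 2.50 CPM in NSC, 1.66, 0.839 and 1.55 in NR, 1.37, 0.837 and 0.626 in Baseline and 0.579, 1.57 and 1.33 in Sox1posGP. *Fgf2* was called higher in NSC than in Baseline, with a log2 fold change of 1.23 (SE 0.37, adjusted p = 0.00803). Part of its exons overlaps the opposite-strand gene Nudt6, whose reads cannot be told apart where strand was ignored.

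5 of the 39 genes, all ligands, were too low to test: *Fgf6*, *Fgf16*, *Fgf20*, *Fgf22* and *Fgf23*. Baseline held no count of any of them. *Fgf16* had the most, with 9, 3 and 11 counts in NSC and 8, 28 and 28 in NR, and at most 1 count in a Sox1posGP library. Its level was at least 7.40-fold higher in NR than in Baseline, taking 3 counts over the Baseline group as the floor.

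The 4 intracellular family members were led by *Fgf13* in NSC, NR and Sox1posGP and by *Fgf11* in Baseline. *Fgf13* read 1.07, 0.977 and 0.209 CPM in Baseline, 6.37, 6.44 and 5.84 in Sox1posGP, 12.3, 17.3 and 14.8 in NR and 21.2, 22.1 and 20.6 in NSC, 4 groups without overlap in that order. The log2 fold change against Baseline was 2.82 (SE 0.30, adjusted p = 6.70e-06) in Sox1posGP, 4.59 (SE 0.26, adjusted p = 2.81e-09) in NSC and 4.07 (SE 0.27, adjusted p = 9.08e-09) in NR. With 18, 7 and 1 Baseline counts, *Fgf13* passed the filter through the groups where it is high, so these tests are a description. *Fgf11* ran the other way, with 3.76, 3.49 and 7.30 CPM in Baseline, 1.45, 0.471 and 1.67 in Sox1posGP, 1.096, 0.898 and 1.25 in NSC and 1.05, 0.710 and 1.01 in NR. Baseline lay above the other 3 groups, with log2 fold changes against Baseline of -2.01 (SE 0.45, adjusted p = 0.00271) in Sox1posGP, -2.11 (SE 0.36, adjusted p = 1.34e-04) in NSC and -2.35 (SE 0.38, adjusted p = 6.21e-05) in NR.

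*Fgf14* had no count in any Baseline or Sox1posGP library and 77, 34 and 52 counts in NSC and 5, 36 and 26 in NR. It was at least 14.7-fold higher in NSC and at least 7.74-fold higher in NR than in Baseline, against 3 counts over the group. Its lower level in NR than in NSC, with a log2 fold change of -0.96 (SE 0.41, adjusted p = 0.0793), lost its call in DESeq2 and without NSC 1, NSC 3, NR 1 or NR 3. *Fgf12* was called in none of the 4 comparisons at levels of at most 1.73 CPM.

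Among the 4 kinase receptors *Fgfr1* was the most abundant per kb in all 4 groups. Their summed level was 60.1 ± 2.09 CPM per kb in Baseline, 59.1 ± 2.40 in NSC, 40.8 ± 1.94 in NR and 30.4 ± 2.48 in Sox1posGP. *Fgfr1* made up 62.1% ± 0.684 of it in Baseline and 84.7% ± 1.51 in Sox1posGP, while *Fgfr3* fell from 29.7% ± 0.670 to 8.63% ± 1.03. Sox1posGP thus had the lowest receptor total, with the largest part of it in *Fgfr1*.

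*Fgfr3*, a receptor of glial progenitors and astrocytes, read 120.5, 134 and 128 CPM in Baseline and 19.4, 20.3 and 16.5 in Sox1posGP, and 79.0, 99.3 and 77.6 in NSC and 13.0, 43.7 and 19.9 in NR. Baseline, NSC and Sox1posGP did not overlap, and the NR libraries spread from below Sox1posGP to above it. Against Baseline the log2 fold change was -2.77 (SE 0.34, adjusted p = 2.51e-05) in Sox1posGP and -2.30 (SE 0.31, adjusted p = 1.07e-05) in NR, the latter -2.93 without NR replicate 2. In NSC it was -0.58 (SE 0.29, adjusted p = 0.0856), a call that was lost in DESeq2, under 2 other scalings and without NSC 1, NSC 3 or any single Baseline library. In NR against NSC it was -1.72 (SE 0.30, adjusted p = 3.62e-04), and -2.35 without NR replicate 2. The spread of NR thus changes the size of this difference but not its direction.

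*Fgfr2*, a receptor for ligands such as *Fgf7* and *Fgf10*, read 143, 106 and 138 CPM in NSC, 77.8, 77.5 and 75.3 in NR, 51.4, 49.8 and 47.0 in Baseline and 20.3, 19.2 and 18.3 in Sox1posGP. The groups fell in that order without overlap, so Sox1posGP lay on the far side of Baseline from the neuroepithelial groups. The log2 fold change against Baseline was -1.37 (SE 0.12, adjusted p = 1.39e-06) in Sox1posGP, 1.38 (SE 0.11, adjusted p = 5.33e-08) in NSC and 0.63 (SE 0.11, adjusted p = 9.24e-05) in NR. *Fgfr1* read 354, 374 and 378 CPM in Baseline and 229.6, 277 and 257 in Sox1posGP, a log2 fold change of -0.53 (SE 0.08, adjusted p = 2.17e-04). *Fgfr4* was rare, at most 2.28 CPM, and highest in NR. Its call in NSC against Baseline, with a log2 fold change of 1.08, was lost without NSC 3 or Baseline 1.

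*Fgfrl1*, a receptor that binds FGF but has no kinase, was the most abundant of the 5 receptor genes per kb in both progenitor groups, at 57.8 ± 3.10 CPM per kb in Baseline and 58.4 ± 2.55 in Sox1posGP. *Fgfr1* reached 37.3 ± 1.33 and 25.8 ± 2.43 CPM per kb there. *Fgfrl1* read 152, 169 and 162 CPM in Baseline, 169.7, 163 and 155 in Sox1posGP, 45.5, 59.5 and 50.8 in NSC and 27.3, 41.6 and 32.2 in NR. The 2 progenitor groups overlapped and lay above both neuroepithelial groups, with log2 fold changes against Baseline of -1.63 (SE 0.14, adjusted p = 1.08e-07) in NSC and -2.25 (SE 0.14, adjusted p = 5.35e-09) in NR. Of the 5 receptor genes, 3 were called lower in Sox1posGP than in Baseline, where 22.7% of all genes were. *Fgfrl1* and *Fgfr4* were not called there by edgeR (unadjusted p = 0.904 and 0.548). Exons of *Fgfr3* overlap the antisense gene G630022F23Rik, and exons of *Fgfr2* share bases with Ctbp2 on the same strand.

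**Figure D4:**
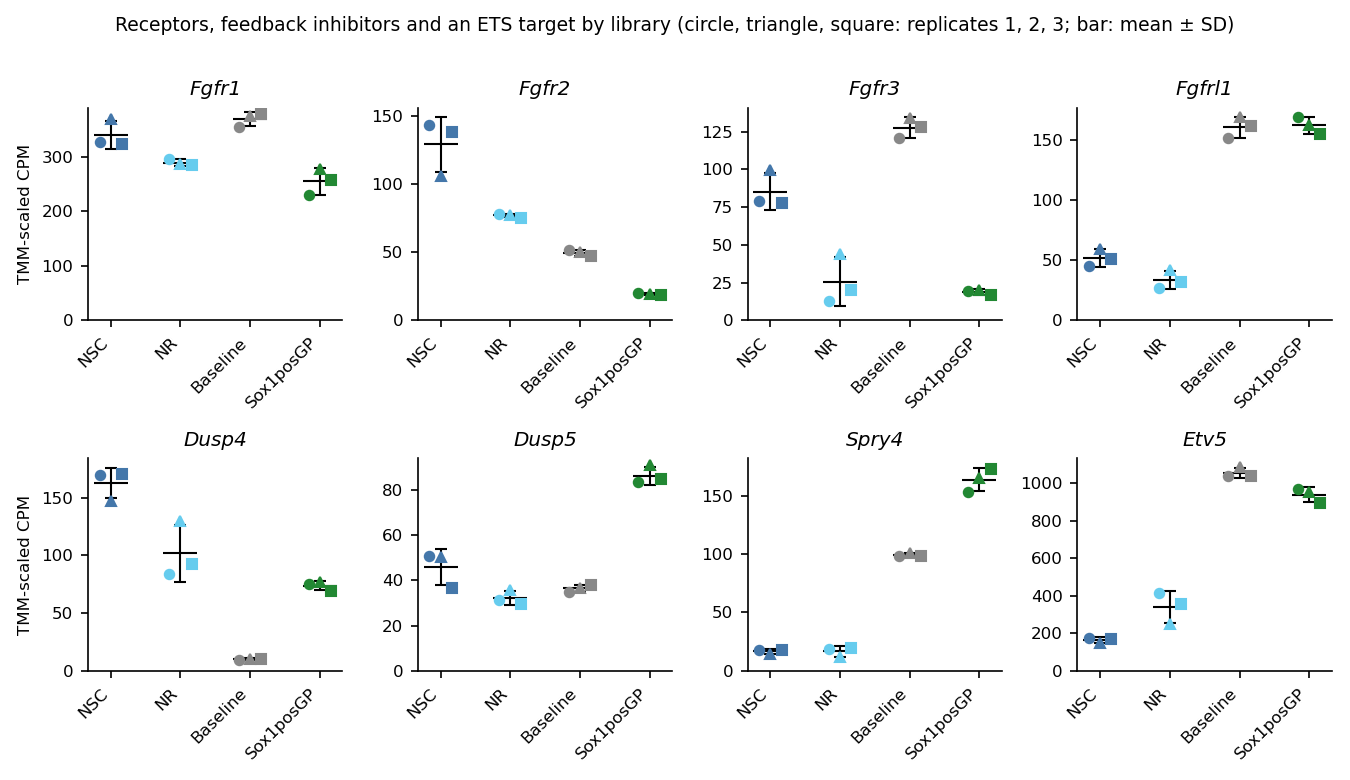
Each panel plots 1 gene in TMM-scaled CPM for the 12 libraries, with circles, triangles and squares for replicates 1, 2 and 3 and a bar for the mean ± SD (n = 3). *Fgfr2* and *Fgfr3* are lower in Sox1posGP than in Baseline, *Dusp4*, *Dusp5* and *Spry4* are higher, and *Fgfrl1* and *Etv5* are high in both progenitor groups and low in NSC and NR.

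Against Baseline the feedback genes did not move as one set. In Sox1posGP against Baseline 4 of the 9 inhibitors were called higher and 1 lower (all genes 21.6% and 22.7%). In NSC 3 were higher and 5 lower (all genes 44.4% and 33.7%), and in NR 1 was higher and 6 lower than in Baseline (all genes 45.6% and 34.1%). Without NSC 2 and NR 2 the calls in NR also took in *Dusp5* and *Dusp6* as lower. In NR against NSC 6 were lower (all genes 26.6%). With 9 genes these counts are a description, and several lie near the share of all genes. In that last comparison all 9 fitted log2 fold changes were negative in edgeR, from -0.91 for *Spred3* to -0.01 for *Spry4*. Exons of *Spry1* and *Dusp5* overlap the antisense genes Gm42922 and AC137853.2, and their reads cannot be told apart where strand was ignored.

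*Dusp4*, a nuclear phosphatase of ERK, gave the largest fitted rise among the 39 genes in Sox1posGP. It read 9.25, 10.7 and 10.6 CPM in Baseline and 75.6, 76.6 and 69.4 in Sox1posGP, and 169.5, 148 and 171 in NSC and 83.6, 129.9 and 92.5 in NR. Baseline was far below the other 3 groups, with no overlap, and NSC was highest. The log2 fold change against Baseline was 2.88 (SE 0.17, adjusted p = 2.70e-08) in Sox1posGP, 4.01 (SE 0.17, adjusted p = 1.37e-10) in NSC and 3.34 (SE 0.16, adjusted p = 6.09e-10) in NR. *Dusp5*, another nuclear ERK phosphatase, read 34.8, 36.7 and 38.0 CPM in Baseline, 83.4, 90.8 and 84.6 in Sox1posGP, 50.6, 50.2 and 36.8 in NSC and 31.3, 35.6 and 29.6 in NR. Sox1posGP was above all other libraries, and NSC overlapped with Baseline. In Sox1posGP against Baseline it was higher, with a log2 fold change of 1.25 (SE 0.13, adjusted p = 5.10e-06). The call of *Dusp5* in NSC against Baseline, at 0.33 (SE 0.12, adjusted p = 0.0263), was lost under thinning and without NSC 1, NSC 2 or Baseline 1.

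*Dusp6*, the cytoplasmic ERK phosphatase often used to read FGF signalling, was the most abundant inhibitor per kb in NSC and NR, at 79.4 ± 10.4 and 54.0 ± 17.1 CPM per kb. It read 217, 209 and 187 CPM in Baseline and 313, 292 and 262 in Sox1posGP, a log2 fold change of 0.49 (SE 0.17, adjusted p = 0.0373). The groups did not overlap, but the call was lost without Baseline replicate 3, at a log2 fold change of 0.45, or without Sox1posGP replicate 1, at 0.46. NSC with 237, 286 and 224 CPM lay just above Baseline, NR with 129, 230.0 and 148 overlapped with it, and neither was called against it.

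The Sprouty genes encode inhibitors that act between the receptor and the Raf kinase. *Spry4* read 98.2, 101 and 98.1 CPM in Baseline, 153, 165 and 173 in Sox1posGP, 17.5, 14.3 and 18.2 in NSC and 18.8, 11.6 and 19.5 in NR. It was highest in Sox1posGP and several-fold lower in both neuroepithelial groups, with log2 fold changes against Baseline of 0.72 (SE 0.15, adjusted p = 0.00195) in Sox1posGP, -2.57 (SE 0.16, adjusted p = 6.58e-09) in NSC and -2.58 (SE 0.16, adjusted p = 6.51e-09) in NR. *Spry1* was the most abundant inhibitor per kb in Baseline, at 124 ± 15.4 CPM per kb, and in Sox1posGP, at 104 ± 6.26. It read 346, 409 and 322 CPM in Baseline, 310.4, 314 and 281 in Sox1posGP, 85.2, 101 and 120.4 in NSC and 81.7, 95.2 and 96.04 in NR, and Sox1posGP was not called against Baseline. Its log2 fold change was -1.82 (SE 0.13, adjusted p = 1.93e-08) in NSC and -1.98 (SE 0.13, adjusted p = 8.19e-09) in NR.

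*Spred1*, a membrane-bound inhibitor of Ras activation, was the inhibitor called lower in Sox1posGP. It read 333, 348 and 309.9 CPM in Baseline, 229, 228 and 196 in Sox1posGP, 225, 189 and 226 in NSC and 84.4, 133 and 127 in NR. Baseline was above all other libraries, and the log2 fold change was -0.60 (SE 0.14, adjusted p = 0.00438) in Sox1posGP, -0.63 (SE 0.14, adjusted p = 0.00112) in NSC and -1.52 (SE 0.14, adjusted p = 3.79e-07) in NR. From NSC to NR it was -0.89 (SE 0.14, adjusted p = 2.00e-04), and -0.91 (SE 0.15, adjusted p = 3.26e-04) for *Spred3*, which read 19.6, 19.7 and 21.6 CPM in NSC and 10.1, 9.90 and 12.3 in NR. *Spry2*, *Spred2* and *Spred3* were not called in Sox1posGP. In NSC their log2 fold changes against Baseline were -0.43, -0.40 and 0.35, with overlapping libraries. The call of *Spred2* there was lost without Baseline 2, under thinning and with no filter, and that of *Spred3* without NSC 1, NSC 3 or Baseline 1 and under thinning.

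The 3 ETS genes were all more abundant in the progenitor groups than in NSC and NR. *Etv5*, the most abundant of them per kb in every group, read 1040.3, 1085 and 1039 CPM in Baseline, 968, 955 and 893 in Sox1posGP, 417, 249 and 357 in NR and 176, 148 and 168 in NSC. Baseline and Sox1posGP lay far above NR, NR lay above NSC, and the log2 fold change was -2.68 (SE 0.15, adjusted p = 2.17e-09) in NSC and -1.63 (SE 0.14, adjusted p = 1.94e-07) in NR against Baseline and 1.05 (SE 0.14, adjusted p = 6.07e-05) in NR against NSC. Per kb, *Etv5* at 257 ± 6.33 CPM in Baseline was the highest of all 39 genes in any group.

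*Etv4* read 163, 154 and 149.8 CPM in Baseline, 214, 238 and 231 in Sox1posGP, 54.2, 51.4 and 55.4 in NSC and 85.1, 66.8 and 79.6 in NR, again 4 groups without overlap. It was the ETS gene called higher in Sox1posGP, with a log2 fold change of 0.55 (SE 0.09, adjusted p = 3.14e-04), and fell in NSC, with -1.54 (SE 0.09, adjusted p = 4.22e-09), and in NR, with -1.01 (SE 0.09, adjusted p = 2.19e-07). *Etv1* read 112, 98.8 and 99.6 CPM in Baseline, 125, 123 and 125 in Sox1posGP, 41.5, 28.9 and 40.9 in NSC and 41.5, 30.0 and 39.5 in NR. It was not called in Sox1posGP, and its log2 fold change was -1.48 (SE 0.14, adjusted p = 4.72e-07) in NSC and -1.49 (SE 0.14, adjusted p = 4.31e-07) in NR.

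**Figure D5:**
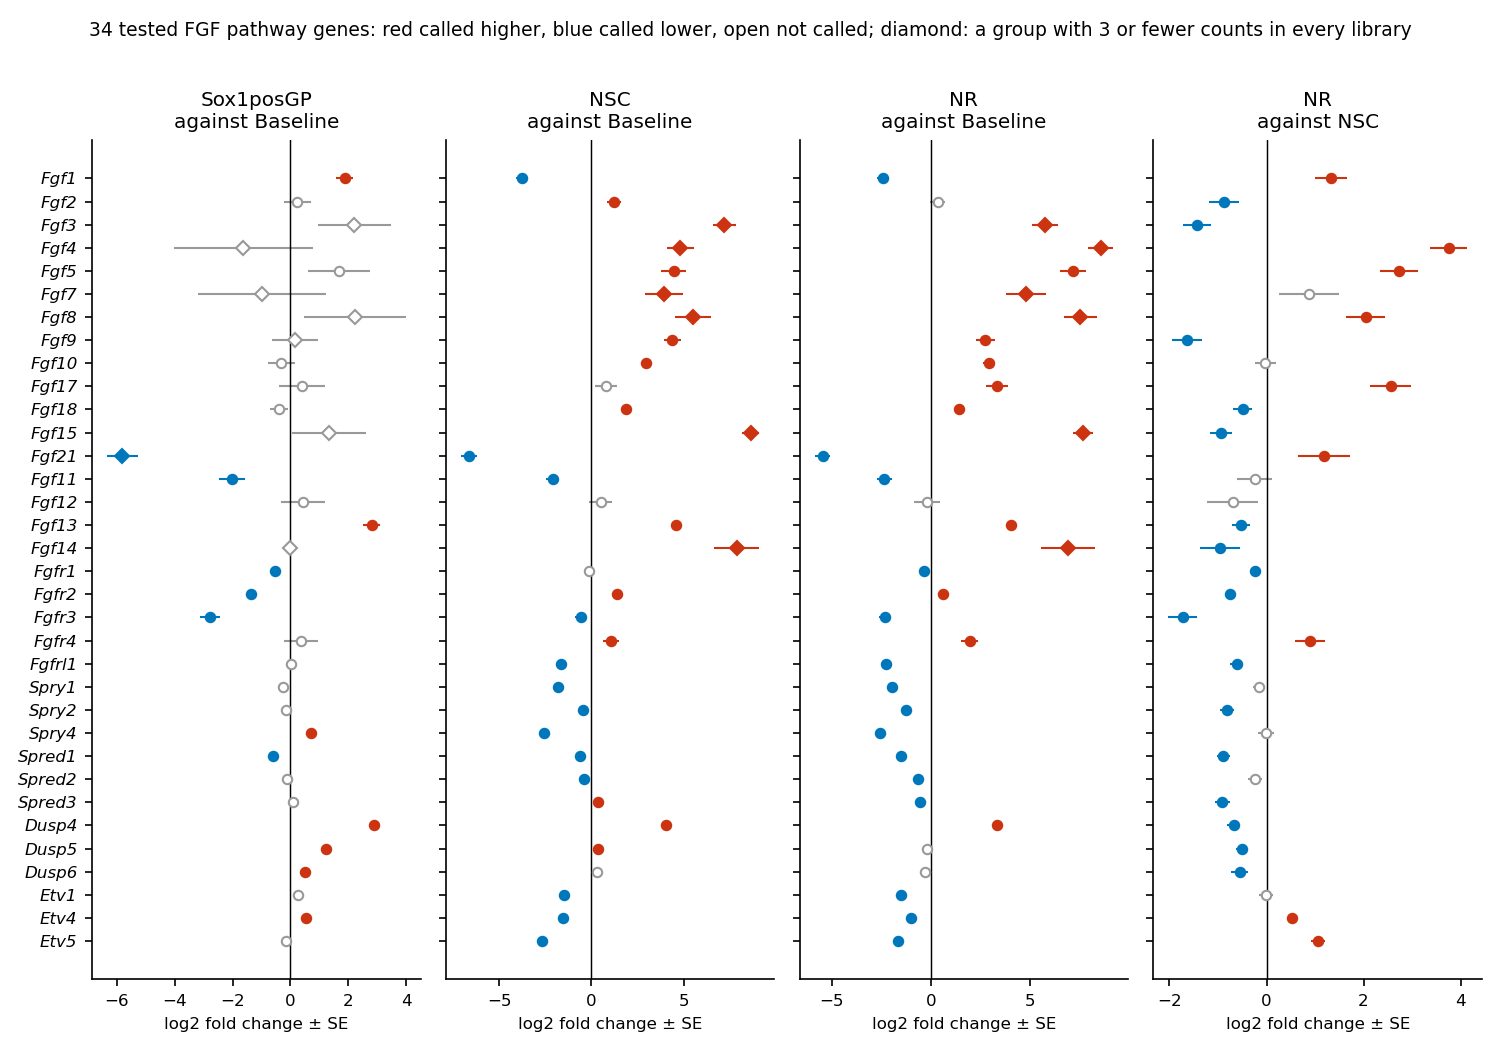
Log2 fold changes ± SE of the 34 tested genes are plotted for the 4 comparisons, 3 libraries against 3, with red for genes called higher, blue for genes called lower and open symbols for genes not called. Diamonds mark genes with 3 or fewer counts in every library of a compared group, whose fitted size depends on the prior count. Ligands lie mostly to the right and ETS genes to the left in NSC and NR against Baseline.

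In NR against NSC 9 of the 39 genes were called higher, where 30.0% of all genes tested were, and 17 lower, where 26.6% were, so the lower calls exceed that share. Without NR 1, the library with low *Sox1*, the counts were 7 and 15, and without NSC replicate 2 and NR replicate 2 they were 9 and 17. The totals hide an exchange, since without both libraries *Fgf21*, at a log2 fold change of 0.84 (adjusted p = 0.264), and *Fgfr1*, at -0.17 (adjusted p = 0.102), lost their calls and *Fgf7*, at 0.91 (adjusted p = 0.00413), and *Fgf12*, at -1.47 (adjusted p = 0.0188), gained one. Against Baseline, leaving both out gave 18 and 14 in NSC, with *Fgf17* higher at 1.06 (adjusted p = 0.0596) and *Fgfr1* lower at -0.20 (adjusted p = 0.0381) added, and 15 and 17 in NR, with *Dusp5* at -0.28 (adjusted p = 0.0471) and *Dusp6* at -0.59 (adjusted p = 1.32e-05) added. The calls made in the lower direction include 4 of the 5 receptor genes, *Fgfr1* among them, and 6 of the 9 inhibitors. Some of these calls are weak, and those of *Fgf2*, *Fgf13*, *Fgf14*, *Fgf18*, *Fgf21*, *Fgfr1* and *Fgfr4* were each lost under at least 1 alternative other than a threshold. The call of *Fgf21*, with a log2 fold change of 1.18 (SE 0.53, adjusted p = 0.0823), was lost when the replicate number was used as a block (adjusted p = 0.106, log2 fold change 1.17). It was also lost with no filter, under thinning, in the fit of the 2 groups alone, and without NSC 2, NSC 3, NR 1 or NR 2. Its adjusted p ran from 0.0405 to 0.289 over the alternatives.

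The median log2 fold change over the 34 tested genes was 0.13 in Sox1posGP against Baseline, 0.42 in NSC against Baseline, -0.19 in NR against Baseline and -0.37 in NR against NSC. Over all 17003 genes it was 0.00, 0.20, 0.19 and 0.01 in the same order. With *Fgf14* at its bound the medians of the FGF genes were the same to 2 decimals. The 34 include genes that passed the filter through the group where they were high, so these medians describe the tested genes and not the 39.

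For each called gene the median log2 fold change of the other tested genes within 5 Mb was computed, as a description of its surroundings. In Sox1posGP against Baseline these medians ran from -0.32 to 0.17. Next to *Dusp4* the median was 0.05, next to *Fgf13* -0.10, next to *Fgf21* 0.00 and next to *Fgfr3* 0.02. Over all 4 comparisons they ran from -0.34 to 1.43, and around *Spry2* in NSC against Baseline the median was 1.07 where *Spry2* was lower. Copy number was not tested.

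Genes that work with FGF outside the 39 were taken as 4 lists. Of 10 co-receptors and receptor partners, 4 were called higher and 3 lower in Sox1posGP (all genes 21.6% and 22.7%), 7 and 2 in NSC (44.4% and 33.7%) and 8 and 1 in NR (45.6% and 34.1%), each against Baseline, and 3 and 4 in NR against NSC (30.0% and 26.6%). *Kl* was not tested, and *Fgfbp1*, *Flrt1* and *Klb*, with few Baseline counts, were tested mainly through NSC or NR, so these counts are a description. *Fgfbp1* and *Fgfbp3*, which carry FGF ligands off the matrix, were among the largest changes. *Fgfbp3* read 3.46, 2.37 and 3.55 CPM in Baseline, 9.84, 7.54 and 12.2 in Sox1posGP, 133, 133 and 135 in NSC and 22.1, 58.9 and 50.2 in NR, and *Fgfbp1* read 2.64, 3.45 and 3.57 in NSC and 53.4, 35.9 and 38.7 in NR. The log2 fold change of *Fgfbp3* was 1.63 in Sox1posGP, 5.40 in NSC and 3.80 in NR against Baseline and -1.60 in NR against NSC, and that of *Fgfbp1* 3.52, 7.25 and 3.73 in the last 3 of these. *Fgfbp3* was highest in NSC and *Fgfbp1* in NR. *Klb*, the klotho protein that *Fgf21* needs, read 0.418, 0.419 and 0.835 CPM in Baseline and 0, 0.157 and 0.167 in Sox1posGP, a fitted log2 fold change of -1.95 that was called. From these few counts the pooled ratio of Baseline to Sox1posGP was 3.86 (95% interval 0.886 to 35.0), so the counts alone leave its size undetermined. *Ncam1*, an adhesion molecule that binds FGF receptors, had log2 fold changes of -1.39 in Sox1posGP and -2.76 in NR, and *Cdh2* one of 3.01 in NSC. *Klb* in NR against NSC had one of 2.53.

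Of 18 heparan sulfate genes, 3 were called higher and 7 lower in Sox1posGP (all genes 21.6% and 22.7%), 14 and 2 in NSC (44.4% and 33.7%) and 10 and 5 in NR (45.6% and 34.1%), each against Baseline, and 2 and 12 in NR against NSC (30.0% and 26.6%). With 18 genes these counts are a description. *Sdc2*, a syndecan core protein, read 12.4, 9.49 and 9.39 CPM in Baseline and 112, 110.4 and 105 in Sox1posGP, where NSC read 74.6, 82.6 and 78.3 and NR 98.5, 79.1 and 87.1. Baseline alone was low, with log2 fold changes against it of 3.35 (SE 0.12, adjusted p = 9.98e-10) in Sox1posGP, 2.87 in NSC and 3.04 in NR. In Sox1posGP *Sdc4* had a log2 fold change of 1.08 and *Gpc4*, a glypican, one of -0.84. *Sulf1*, an extracellular sulfatase that trims heparan sulfate, had a log2 fold change of 7.71 in NSC and 7.33 in NR, and the glypican *Gpc3* 6.95 and 7.54. In NR against NSC *Sdc4* had a log2 fold change of 1.76, the sulfotransferase gene *Ndst1* -1.18 and *Sdc3* -0.98.

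Of 20 genes of the Ras-ERK cascade, 3 were called higher and 7 lower in Sox1posGP (all genes 21.6% and 22.7%), 7 and 7 in NSC (44.4% and 33.7%) and 6 and 9 in NR (45.6% and 34.1%), each against Baseline, and 6 and 6 in NR against NSC (30.0% and 26.6%). Beside those shares the counts give no result about this list. The largest absolute value of the list was that of *Gab1*, a docking adaptor, in NR. In Sox1posGP the largest were -0.92 for *Sos2*, -0.91 for *Cbl* and 0.74 for *Shc1* on the log2 scale. *Gab1* had log2 fold changes of 1.18 in NSC and 2.29 in NR against Baseline and 1.11 in NR against NSC. In NSC against Baseline *Mapk3*, which encodes ERK1, had -0.96 and *Hras* -0.76. In NR against Baseline *Sos2* had -1.40 and *Shc1* 1.25, and against NSC *Sos2* had -0.90 and *Map2k1* 0.59.

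Of 7 other MAPK phosphatases, 1 was called higher and 0 lower in Sox1posGP (all genes 21.6% and 22.7%), 3 and 3 in NSC (44.4% and 33.7%) and 3 and 4 in NR (45.6% and 34.1%), each against Baseline, and 2 and 2 in NR against NSC (30.0% and 26.6%). Beside those shares, counts over 7 genes give no result. *Dusp9*, which embryonic stem cells express, read 1.19, 1.95 and 1.46 CPM in Baseline, 0.869, 1.41 and 2.00 in Sox1posGP, 32.5, 24.9 and 28.6 in NSC and 238, 129 and 169 in NR, so it was highest in the group with the highest sums of pluripotency markers. *Dusp1* was the phosphatase of this list called in Sox1posGP, with a log2 fold change of 0.62. In NSC against Baseline the log2 fold change was 4.30 for *Dusp9*, -2.75 for *Dusp2* and 1.23 for *Dusp8*, and in NR 6.94 for *Dusp9*, -2.29 for *Dusp2* and -0.76 for *Dusp16*. In NR against NSC it was 2.64 for *Dusp9*, -0.61 for *Dusp10* and -0.50 for *Dusp8*.

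RefSeq promoters were found for 29 of the 39 genes, among them 9 of the 12 feedback and ETS genes. On both strands of the 250 bases before the start, TGAATGAA was in *Spred3* and *Fgf21*, and TGAATGGA, the other Capicua octamer, was in *Fgf23* (1.01% of all promoters). CCGGAAGT, an ETS site with its flanks, was in *Fgfrl1* (2.88% of all promoters), and the cyclic AMP response element TGACGTCA (1.55% of all promoters) was in none of the 29. *Dusp6* is shown as the most abundant inhibitor of NSC and NR, with its 16 CG dinucleotides in capitals (chr10:99262981-99263230, plus strand, RefSeq, GRCm38.p6).
Dusp6: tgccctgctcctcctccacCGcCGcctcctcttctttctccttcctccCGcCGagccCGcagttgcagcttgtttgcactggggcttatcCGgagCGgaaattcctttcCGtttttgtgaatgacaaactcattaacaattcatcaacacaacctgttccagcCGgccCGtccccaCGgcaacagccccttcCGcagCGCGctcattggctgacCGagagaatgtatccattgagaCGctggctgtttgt
It holds none of these 4 motifs. No match says only that these letters are not in this window.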

How the data were processed

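The authors deposited raw counts per Ensembl gene for 12 libraries made with SMART-Seq amplification. The submitters' processing notes name STAR 2.6, RSEM 1.1.14 and the build mm10, without their roles; the strand setting of the counting is not given in the sources used here. Symbols, exon lengths and coordinates came from the GRCm38 annotation, and identifiers that matched no symbol made up 0.124% of the counts.

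Counts were scaled by TMM and filtered by filterByExpr with the 4 groups. They were fitted over all 12 libraries with edgeR 4.0.16 (glmQLFit and glmQLFTest, limma 3.58.1, R 4.3.3), and p-values were adjusted by Benjamini-Hochberg over 17003 genes. DESeq2 1.42.0 was an alternative. The calls were tested on simulated data. Python 3.11.15 made the tables with pandas 2.3.3 and the intervals with scipy 1.17.1; figures are from matplotlib 3.10.9. The 39 genes and all lists were chosen with earlier results of these data known. The genes given with values were, per comparison, the 12 called genes with the largest absolute log2 fold change among those without overlap, the most abundant per kb of each role, *Sox1*, and the 3 largest called changes per pathway list. Others were named after their values were seen. The other members are given as counts. A fold against a group with no count uses 3 counts over the group as the floor, and one against a group with at most 3 counts in each library is a pooled ratio with an exact 95% interval. Intervals and floors cover counting error only.

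Same-numbered libraries of NR and NSC deviated together from their group means (correlations 0.229, 0.490 and 0.296), so the replicate number pairs them. With Baseline the correlations ran from -0.0472 to 0.0475. No label says what a number shares. All pairs of libraries of a group differed by more than sampling noise. The alternatives were other tests, scalings, filters, thresholds and fits, thinning to 3407066 counts, the block, and leaving out each library. Leaving out NSC 2 and NR 2 together was chosen after seeing the data.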

Additional observations from a re-analysis of the deposited data

How the results depend on the processing

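Over the alternatives, 1653 values were recomputed for the 99 calls of single genes. No sign changed, and 1546 kept their call. Requiring a fold over 4 as well left 2 of 7 higher and 3 of 6 lower calls in Sox1posGP against Baseline, 11 of 17 and 5 of 13 in NSC against Baseline, 12 of 15 and 6 of 15 in NR against Baseline, and 4 of 9 higher and 0 of 17 lower calls in NR against NSC, which follows from the stricter rule. At that fold DESeq2 also gave 0 lower calls in NR against NSC, and 17 genes were lower at an unadjusted p under 0.05 in edgeR with no fold required. Apart from the fold threshold, 13 of the 99 calls were lost under at least 1 alternative.

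Leaving out libraries gave 6 to 8 higher and 6 lower calls in Sox1posGP, 14 to 18 higher and 11 to 14 lower in NSC, 15 higher and 15 to 17 lower in NR, each against Baseline, and 7 to 9 higher and 15 to 17 lower in NR against NSC. With the replicate number as a block, where NR and NSC are paired, the call of *Fgf21* in NR against NSC was lost, that of *Fgf7* was gained, at 0.81 (adjusted p = 0.0193), and no other changed. For the comparisons with Baseline, whose numbers did not pair libraries, the block gave 9 higher and 6 lower calls in Sox1posGP, 18 and 13 in NSC and 15 and 16 in NR, adding *Etv1* and *Fgf5* in Sox1posGP and *Dusp6* in NSC and NR.

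Depth limits the low genes. Thinning every library to the smallest total left 29 of the 34 genes testable. In Baseline and Sox1posGP, a ligand with a few counts or none has an upper bound on its level and no measured absence. The p-values rest on a spread between libraries estimated over all 12 libraries, with 3 per group. Those for Sox1posGP against Baseline therefore also carry the spread within NSC and NR. Fitting only the 2 groups compared gave 9 higher and 8 lower calls of FGF genes there, where the main fit gave 7 and 6.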
